A study of Saccharomyces cerevisiae with 9 samples.

Results

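Red cultures of a yeast carrying the cdc13-K504E mutation were compared with red cultures of the wild type after 15 days in stationary phase. The comparison uses 6 of the 9 RNA-seq libraries of the series, 3 per group, and the 5205 genes of the deposited count table. All cultures were Saccharomyces cerevisiae W303, a laboratory strain background, and all were held in YPD, a rich glucose medium, for the full 15 days with no dilution. The K504E-red group had the genotype cdc13-K504E and formed red colonies, and the WT-red group had the wild-type genotype and formed red colonies. The 3 remaining libraries, from white colonies of the same mutant, entered the scaling, the filter on low counts and the estimate of the spread between replicates, but no comparison. Libraries were made from poly(A)-enriched RNA. No label gives the number of clones behind a group, and a white wild-type group is not analysed here, so the mutation and the clone that carried it cannot be told apart.

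Cdc13 binds the single-stranded overhang at telomeres. With Stn1 and Ten1 it forms the CST complex, which protects chromosome ends, recruits telomerase through Est1 and hands the end to DNA polymerase alpha for fill-in synthesis. When Cdc13 fails, exposed ends are resected and a checkpoint led by Mec1 and Rad53 halts division. The title of the study describes the mutant protein as defective in binding junctions. Red colour arises in yeast blocked in adenine synthesis at Ade2 or Ade1, because the intermediate that accumulates is conjugated to glutathione, stored in the vacuole and oxidised to a red pigment. Stationary phase itself is a nondividing state in which ribosome production is low and storage carbohydrates, stress proteins, respiration and autophagy are high.

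Total counts were 27388755 to 33228022 in K504E-red and 28163511 to 34564131 in WT-red. The first principal component of the 6 libraries carried 62.2% of the variance and separated the groups, and the second carried 11.7%. Across tested genes, the median SD of log2 CPM between replicates was 0.0812 in K504E-red and 0.0863 in WT-red, so a typical gene varied by much less than a 1.5-fold change within a group. CPM is the count scaled to a common library size, and fold changes below are K504E-red over WT-red on the log2 scale with their standard error (SE).

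The mutated gene was read at a similar level in both strains. CDC13 (YDL220C, contig 101, 17082 to 19856, chromosome IV) had 21.9, 31.8 and 29.4 CPM in K504E-red, against 23.4, 24.4 and 27.6 CPM in WT-red. The ranges overlapped, and its log2 fold change was 0.14 (SE 0.125, edgeR adjusted p 0.388). Counts per gene do not show the amino acid change itself. ADE2 (YOR128C, contig 141, 11401 to 13116, chromosome XV), the purine gene tied to the red pigment, had 129, 112 and 120.3 CPM in K504E-red, against 84.3, 77.3 and 96.99 CPM in WT-red. The groups did not overlap, and the log2 fold change was 0.49 (SE 0.0733, edgeR adjusted p 3.85e-05). The labels do not say which ADE2 allele the strains carried, so this transcript may come from a functional or a mutant gene. As a check of strain identity, STE2, the receptor found on mating type a cells, was measured at 438, 393 and 421 FPKM in K504E-red, against 471, 478 and 474 FPKM in WT-red, where FPKM is the authors' value per gene length and library. STE3, the receptor of mating type alpha cells, was at 1.995, 1.72 and 2.81 FPKM in K504E-red, against 1.17, 1.92 and 1.49 FPKM in WT-red. Both strains therefore carried the a-cell pattern on this pair of genes.

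The 2 red strains differed in many genes by small amounts. Of 5172 genes tested, 2455 (47.5%) were called at an adjusted p under 0.05 in the quasi-likelihood test of edgeR, adjusted by the Benjamini-Hochberg method. Of these 1333 (25.8% of the genes tested) were higher in K504E-red and 1122 (21.7%) were lower. Counts of called genes in the lists below are to be read beside these shares. Fitted with the 6 red libraries alone, 2220 genes were called, 1047 higher and 1173 lower, so which direction held more calls depended on the libraries in the fit. A called gene changed by a median of 0.33 in log2 units, and the change reached 1.5-fold in 334 genes. It reached 2-fold in 36 (0.696%), of which 6 (0.116%) were higher and 30 (0.58%) were lower. The number that were at least 2-fold higher was sensitive to single libraries, at 10 without K504E-red replicate 1, 3 without WT-red replicate 1 and 11 without WT-red replicate 3. In 2824 genes (54.6%) every library of 1 group lay outside the range of the other, with K504E-red above WT-red in 1537 (29.7%) and below it in 1287 (24.9%). In the plot of all genes the strongest changes lie below 0. In bulk RNA such as this, fewer cells in a given state and less of a transcript per cell cannot be told apart.

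**Figure D1:**
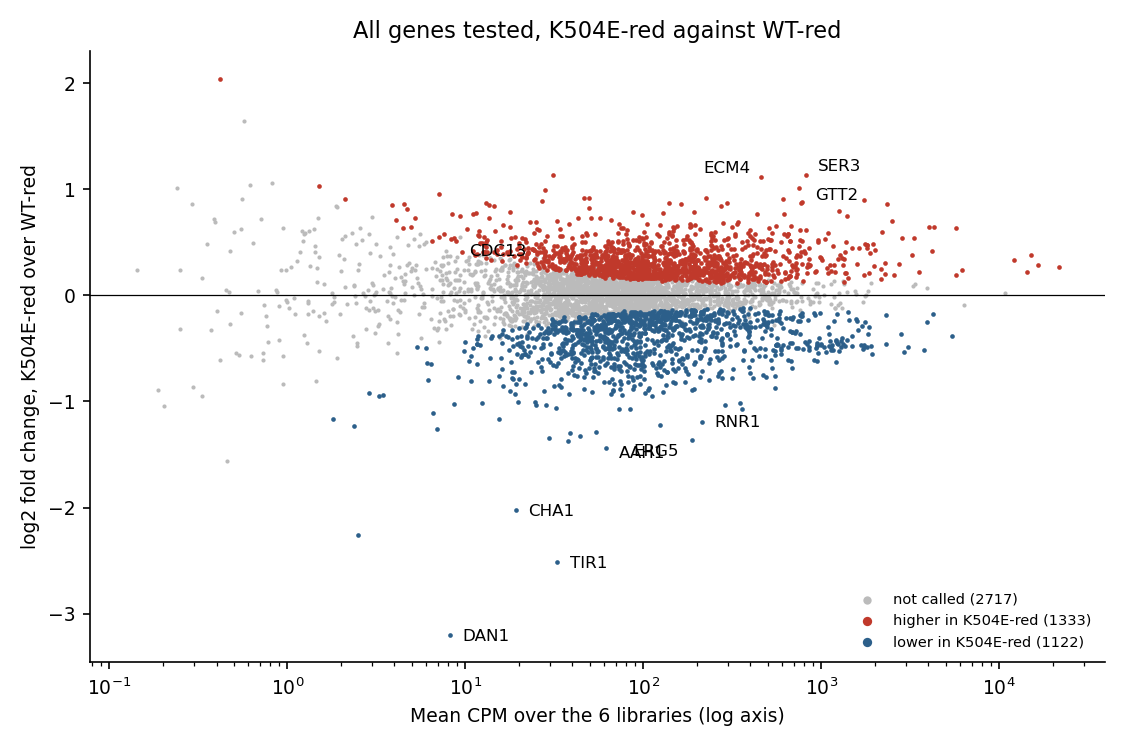
Log2 fold change of each tested gene (vertical axis, K504E-red over WT-red) against its mean CPM over the 6 libraries (horizontal log axis), with 1333 genes called higher in red, 1122 called lower in blue and 2717 not called in grey. DAN1, TIR1 and CHA1 lie furthest below 0 among the labelled genes, and CDC13 lies among the genes not called.

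The 12 genes per direction described next were chosen among called genes whose groups did not overlap. They also had a mean of at least 10 CPM in the higher group. Separate groups in these genes therefore follow from the choice and are not a result. Within this choice, the strongest falls were in genes of the anaerobic cell wall, amino acid breakdown and purine salvage. DAN1 (YJR150C, contig 84, 18024 to 18920, chromosome X), a cell wall mannoprotein made under anaerobiosis, had 1.64, 1.28 and 1.88 CPM in K504E-red, against 10.3, 17.4 and 16.6 CPM in WT-red. Its log2 fold change was -3.20 (SE 0.256, edgeR adjusted p 1.01e-07). TIR1 (YER011W, contig 46, 74022 to 74714, chromosome V), another mannoprotein of cold-stressed and anaerobic cells, had 10.2, 9.31 and 10.04 CPM in K504E-red, against 50.4, 55.9 and 61.8 CPM in WT-red. It changed by -2.51 (SE 0.0969, edgeR adjusted p 1.45e-11), and in both genes every K504E-red library lay far below every WT-red library. CHA1 (YCL064C, contig 142, 65978 to 67060, chromosome III) encodes the catabolic serine and threonine deaminase. It had 7.72, 6.16 and 8.84 CPM in K504E-red, against 26.3, 30.5 and 35.9 CPM in WT-red, a log2 fold change of -2.02 (SE 0.149, edgeR adjusted p 4.24e-08).

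AAH1 (YNL141W, contig 88, 82501 to 83544, chromosome XIV), the adenine deaminase that turns adenine into hypoxanthine and is known to be shut off in quiescence, had 29.8, 29.5 and 41.1 CPM in K504E-red, against 84.9, 108 and 78.7 CPM in WT-red. Its log2 fold change was -1.44 (SE 0.118, edgeR adjusted p 1.33e-07). HO (YDL227C, contig 101, 1109 to 2869, chromosome IV), the mating type switching endonuclease that is transcribed in late G1, had 17.3, 23.3 and 22.5 CPM in K504E-red, against 61.6, 52.4 and 49.6 CPM in WT-red. The change was -1.38 (SE 0.112, edgeR adjusted p 1.25e-07). RNR1 (YER070W, contig 249, 48379 to 51045, chromosome V), the large subunit of ribonucleotide reductase and a G1/S gene, had 131, 128 and 129.6 CPM in K504E-red, against 312, 294 and 284 CPM in WT-red. Replicates were tight and the groups far apart, with a log2 fold change of -1.20 (SE 0.0592, edgeR adjusted p 4.55e-10).

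The other genes in this group served sterols, esters, ribosomes and nucleotides. ERG5, the sterol desaturase of late ergosterol synthesis, had 115, 106 and 95.8 CPM in K504E-red, against 279, 276 and 255 CPM in WT-red. ALB1, a shuttling factor of large ribosomal subunit assembly, had 23.3, 27.3 and 24.8 CPM in K504E-red, against 60.5, 74.5 and 53.6 CPM in WT-red. URA7, a CTP synthase, had 60.6, 81.5 and 80.6 CPM in K504E-red, against 159, 207 and 153 CPM in WT-red. Their log2 fold changes were -1.36 (SE 0.116), -1.32 (SE 0.104) and -1.22 (SE 0.109), and in none of the 3 did the groups overlap. ATF2, an alcohol acetyltransferase that also acetylates sterols, changed by -1.30 (SE 0.0903). PDC5, a minor pyruvate decarboxylase, changed by -1.29 (SE 0.13), and the permease-family gene SEO1 by -1.35 (SE 0.179). Adjusted p-values of these genes by edgeR ran between 3.97e-08 and 1.05e-05.

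Among the strongest rises, SER3 and glutathione-linked enzymes stood out in size. SER3 (YER081W, contig 249, 71953 to 73362, chromosome V), which catalyses the first step of serine synthesis from a glycolytic intermediate, had 1072, 1093 and 1213 CPM in K504E-red, against 545, 444 and 551 CPM in WT-red. Its log2 fold change was 1.13 (SE 0.0744, edgeR adjusted p 2.36e-08). ECM4 (YKR076W, contig 6, 3752 to 4864, chromosome XI), an omega-class glutathione transferase, had 647, 591 and 655 CPM in K504E-red, against 248, 295 and 331 CPM in WT-red. GTT2 (YLL060C, contig 4, 73674 to 74375, chromosome XII), a glutathione transferase, had 1000.4, 943 and 1055 CPM in K504E-red, against 435, 494 and 559 CPM in WT-red. Neither gene overlapped between groups, and the changes were 1.11 (SE 0.0787) for ECM4 and 1.01 (SE 0.0725) for GTT2, both with an adjusted p of 3.97e-08 by edgeR. GPX2, a glutathione peroxidase-type enzyme and Yap1 target, had 61.8, 61.2 and 72.6 CPM in K504E-red, against 37.5, 31.8 and 34.1 CPM in WT-red.

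ADE17, which carries out the last steps of inosine monophosphate synthesis, had 339.6, 256 and 290.1 CPM in K504E-red, against 148, 138 and 183 CPM in WT-red. It changed by 0.92 (SE 0.096, edgeR adjusted p 1.27e-06). HIS4, a histidine synthesis enzyme, had 2311, 2068 and 2401 CPM in K504E-red, against 1353, 1031 and 1252 CPM in WT-red, and the change was 0.90 (SE 0.0812). ATG39, a receptor for autophagy of the nuclear envelope, had 33.5, 38.3 and 39.5 CPM in K504E-red, against 16.1, 18.7 and 21.2 CPM in WT-red. HSP31, a chaperone with methylglyoxalase activity, had 1019, 864 and 1134 CPM in K504E-red, against 499.9, 512 and 628 CPM in WT-red. GCY1, a glycerol dehydrogenase, had 783, 769 and 839 CPM in K504E-red, against 446, 373 and 454 CPM in WT-red. All of these groups were separate, with log2 fold changes of 0.99 for ATG39, 0.88 for HSP31 and 0.91 for GCY1. SPS100, a gene of the spore wall, changed by 0.89 (SE 0.133).

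In 2 of these 12 genes, 1 library stood apart from its group. UBA3, a subunit of the enzyme that activates the ubiquitin-like protein Rub1, had 39.6, 39.8 and 103 CPM in K504E-red, against 32.5, 30.6 and 33.9 CPM in WT-red. Its call (adjusted p 0.00655 by edgeR) was lost without K504E-red replicate 3, where the log2 fold change was 0.26 (adjusted p 0.0802). YIR042C (contig 29, 1044 to 1754, chromosome IX), an uncharacterised gene that is the outermost of the table on its chromosome arm, had 44.3, 41.4 and 42.3 CPM in K504E-red, against 12.7, 15.02 and 30.6 CPM in WT-red. WT-red replicate 3 stood well above the other WT-red libraries, and the log2 fold change was 1.13 (SE 0.207, edgeR adjusted p 2.50e-04). The plot of the largest changes shows these libraries beside those of the other genes.

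**Figure D2:**
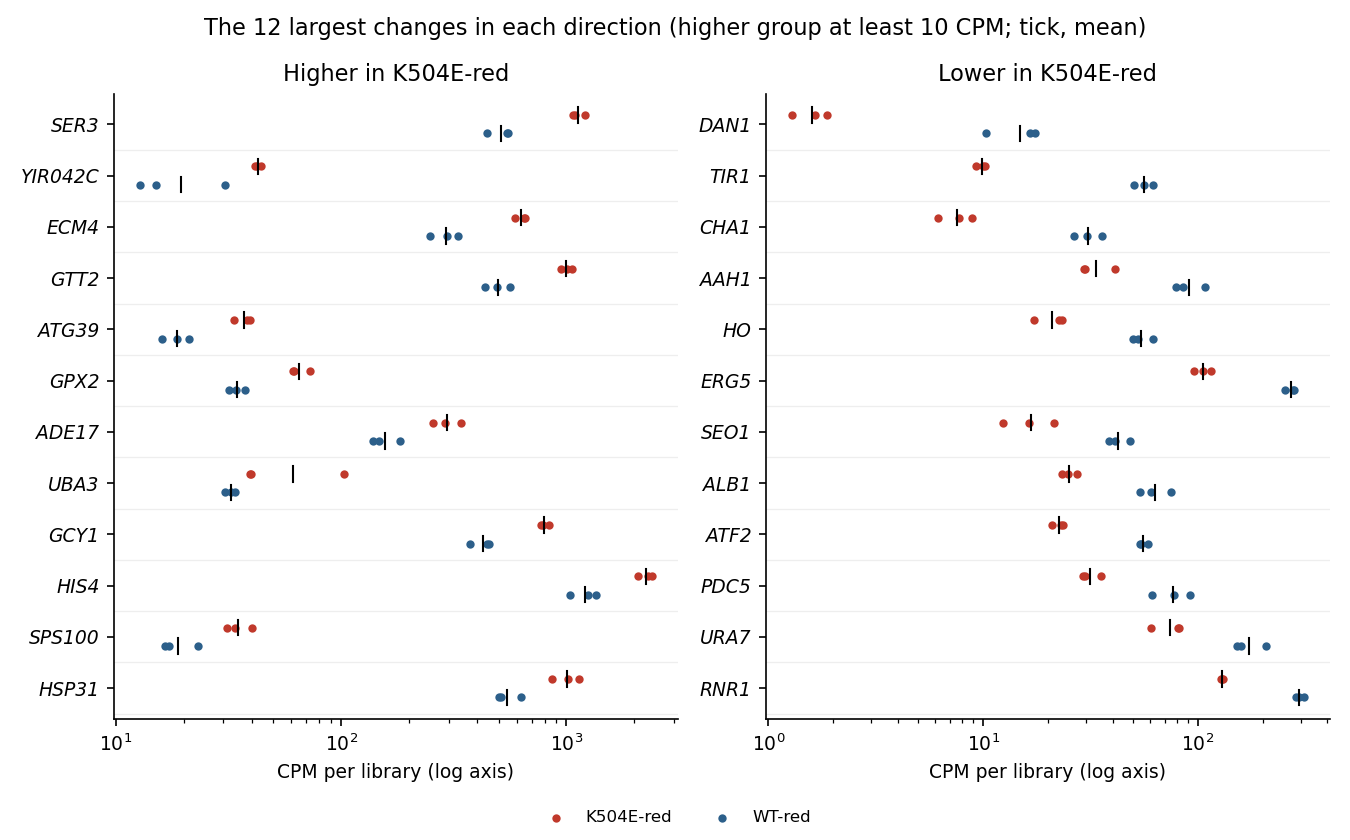
CPM per library (horizontal log axis) of 12 genes with large rises (left panel) and 12 with large falls (right panel). They are the largest changes among called genes with separate groups and a mean of at least 10 CPM in the higher group. K504E-red is drawn above WT-red for each gene, dots are libraries and the vertical tick is the mean of 3. The wide sets are UBA3 in K504E-red, where 1 library is at 103 CPM, and YIR042C in WT-red.

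In the telomere capping and telomerase list, CDC13, its CST partners and the telomerase subunits EST1 and EST2 were not called. The subunits of polymerase alpha and primase were lower. The telomerase subunit EST3 and the list member MTC7 were not in the count table and are not analysed here. Of 21 genes tested from this list, 2 (9.52%) were called higher and 8 (38.1%) lower, beside 25.8% and 21.7% of all tested genes. The median log2 fold change was -0.06, against 0.03 over all genes. The 11 members not called are a share close to that over all genes, of which 2717 of 5172 were not called. The CST partners STN1 and TEN1 were not called, at -0.06 (SE 0.109, edgeR adjusted p 0.687) and 0.20 (SE 0.148, edgeR adjusted p 0.2995). STN1 had 24.8, 29.1 and 27.1 CPM in K504E-red, against 26.5, 25.8 and 32.1 CPM in WT-red, and the groups overlapped. The telomerase subunits EST1 and EST2 were not called either, at -0.02 (SE 0.0952, edgeR adjusted p 0.88) and -0.10 (SE 0.127, edgeR adjusted p 0.548).

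All 4 subunits of polymerase alpha and primase, the enzyme that CST engages for fill-in and that also starts every replication fork, were called lower. POL12, its B subunit, had 25.03, 20.3 and 24.9 CPM in K504E-red, against 36.1, 35.7 and 37.1 CPM in WT-red. POL1, its catalytic subunit, had 43.7, 41.1 and 45.96 CPM in K504E-red, against 64.9, 69.5 and 61.5 CPM in WT-red. The groups were separate in both, and the changes were -0.63 (SE 0.107, edgeR adjusted p 1.28e-04) and -0.58 (SE 0.0726, edgeR adjusted p 5.39e-06). The primase subunit PRI2 changed by -0.35 (SE 0.0721). The other primase subunit, PRI1, changed by -0.25 (SE 0.0849) with a call lost without WT-red replicate 2 (0.0678), where the value in brackets is the adjusted p. RIF1, which limits telomere length and delays origins, changed by -0.29 (SE 0.0715), and RAP1, the telomeric repeat and promoter binding protein, by -0.22 (SE 0.0624). TBF1, which binds subtelomeric repeats, changed by -0.26 (SE 0.0844), and RRM3, a helicase that helps forks through telomeres, by -0.28 (SE 0.101). The TBF1 call was lost without WT-red replicate 2 (0.0514) or WT-red replicate 3 (0.0569), and that of RRM3 without K504E-red replicate 1 (0.0581), WT-red replicate 1 (0.106) or WT-red replicate 2 (0.0596). Without WT-red replicate 2 the list therefore held 5 lower members in place of 8.

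The only telomere genes called higher were TEL1 and XRS2. TEL1, the ATM-family kinase that favours telomerase action at short telomeres, had 82.4, 92.3 and 83.6 CPM in K504E-red, against 66.1, 64.3 and 61.4 CPM in WT-red. The groups were separate and the change was 0.43 (SE 0.0658, edgeR adjusted p 4.63e-05). XRS2, the subunit of the MRX nuclease complex that binds Tel1, had 49.8, 49.2 and 49.3 CPM in K504E-red, against 43.5, 37.8 and 36.7 CPM in WT-red, a change of 0.33 (SE 0.0844, edgeR adjusted p 0.00374). Its complex partners MRE11 and RAD50 were not called, at 0.08 (SE 0.086) and 0.08 (SE 0.0838). The end-binding Ku subunits YKU70 and YKU80 were at 0.04 and 0.00, RIF2 at 0.09 and the telomerase-removing helicase PIF1 at -0.19, none of them called. Adjusted p-values of these 6 genes by edgeR were 0.091 for PIF1 and at least 0.459 for the others.

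Genes of the DNA damage response moved both ways. Of 27 genes tested, 5 were called higher and 7 lower, with a median of -0.03, shares of 18.5% and 25.9% beside 25.8% and 21.7% of all tested genes. RNR3, the damage-inducible large subunit of ribonucleotide reductase, had 28.5, 24.95 and 29.3 CPM in K504E-red, against 20.4, 18.7 and 22.2 CPM in WT-red, a change of 0.44 (SE 0.101, edgeR adjusted p 0.00187). The small subunits RNR2 and RNR4, which are also induced by damage, were not called, at 0.09 (SE 0.049) and -0.06 (SE 0.053). In FPKM, which allows levels to be set side by side, RNR3 was at 10.8, 9.47 and 11.1 FPKM in K504E-red, against 7.81, 7.19 and 8.41 FPKM in WT-red. RNR1 was at 48.3, 47.4 and 48.1 FPKM in K504E-red, against 117, 111 and 105 FPKM in WT-red, so its transcript remained above that of RNR3 in every library.

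The other higher members repair DNA lesions directly. RAD2, the nuclease of nucleotide excision repair, had 129, 134 and 130.4 CPM in K504E-red, against 95.03, 99.4 and 102 CPM in WT-red. PHR1, the photolyase, had 139, 136 and 147 CPM in K504E-red, against 108, 96.2 and 115 CPM in WT-red. MAG1, the glycosylase of alkylated bases, had 84.3, 74.8 and 67.9 CPM in K504E-red, against 57.3, 58.2 and 60.6 CPM in WT-red. Groups were separate in each, and the changes were 0.41 (SE 0.0579), 0.40 (SE 0.0654) and 0.37 (SE 0.0782), and edgeR gave adjusted p-values of 2.23e-05, 8.37e-05 and 9.77e-04. RAD7, which recognises lesions, changed by 0.29 (SE 0.0834), and its call was lost without K504E-red replicate 2 (0.145) or WT-red replicate 1 (0.0562).

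Lower members included the checkpoint kinase itself. RAD53, the effector kinase of the checkpoint, had 14.2, 13.05 and 13.9 CPM in K504E-red, against 25.03, 22.6 and 26.03 CPM in WT-red. The groups were separate and the change was -0.84 (SE 0.115, edgeR adjusted p 1.42e-05). EXO1, the nuclease that resects uncapped telomeres, had 50.6, 50.5 and 48.6 CPM in K504E-red, against 72.2, 61.2 and 61.2 CPM in WT-red, a change of -0.38 (SE 0.0762). MEC3, a subunit of the checkpoint clamp, changed by -0.34 (SE 0.101), and SML1, the inhibitor of ribonucleotide reductase, by -0.28 (SE 0.0625). PDS1, the securin, changed by -0.31 (SE 0.103) and RAD52 by -0.20 (SE 0.0695). The call of PDS1 was lost without WT-red replicate 2 (0.0986), and that of RAD52 without K504E-red replicate 3 (0.0615), WT-red replicate 2 (0.0839) or WT-red replicate 3 (0.102). The checkpoint adaptor RAD9, the kinases CHK1 and DUN1 and the clamp loader RAD24 were not called, with log2 fold changes of 0.03, 0.12, -0.12 and -0.01. HUG1 and MEC1 were not in the count table and are not analysed here.

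**Figure D3:**
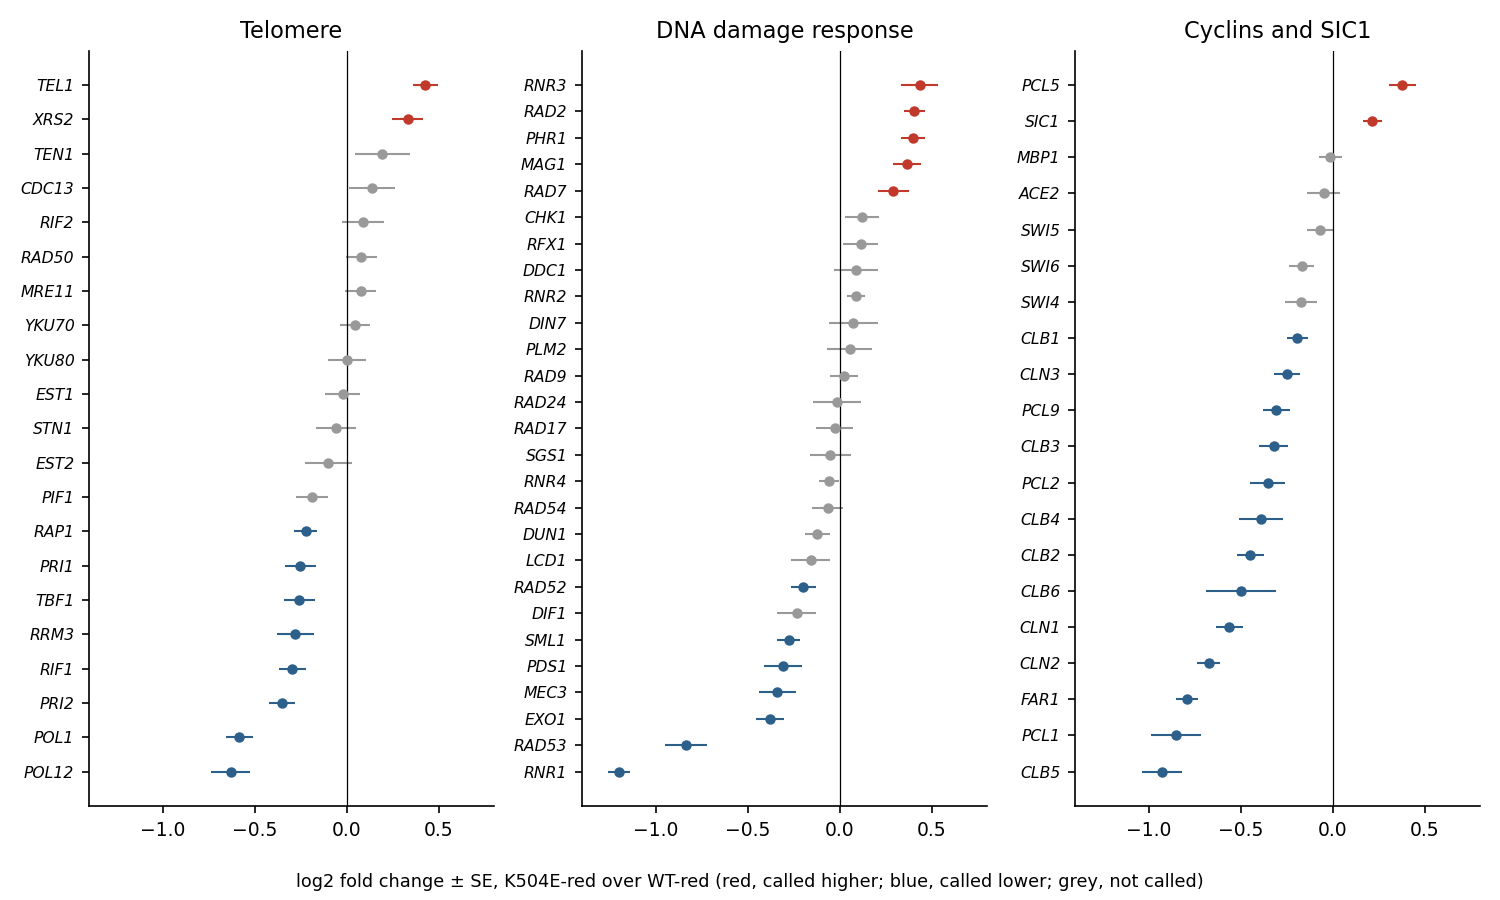
Log2 fold change with SE (horizontal axis, K504E-red over WT-red) of each tested member of 3 gene lists: telomere capping and telomerase (left), DNA damage response (middle), and cyclins, SIC1 and G1 regulators (right). Red dots are called higher, blue dots called lower and grey dots not called; CDC13, STN1, TEN1, EST1 and EST2 are grey, and RNR1 lies lowest at -1.20.

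Genes of the cell division programme were mostly lower in K504E-red. Of 20 genes on the list of cyclins, SIC1 and G1 regulators, 13 were called lower and 2 higher, with a median of -0.31. CLB5, the S phase cyclin, had 12.6, 13.2 and 13.8 CPM in K504E-red, against 23.3, 26.1 and 25.7 CPM in WT-red. The change was -0.93 (SE 0.109, edgeR adjusted p 3.35e-06). PCL1, a G1 cyclin of the kinase Pho85, had 12.2, 13.01 and 9.88 CPM in K504E-red, against 20.3, 23.7 and 19.1 CPM in WT-red, a change of -0.85 (SE 0.136). The G1 cyclins CLN1, CLN2 and CLN3 changed by -0.56 (SE 0.0736), -0.67 (SE 0.0622) and -0.25 (SE 0.0714), and the mitotic cyclin CLB2 by -0.45 (SE 0.0756). The CLN3 call was lost without WT-red replicate 2 (0.0509). FAR1, an inhibitor of G1 cyclin kinases, changed by -0.79 (SE 0.059). SIC1, the inhibitor of S phase cyclin kinases, was higher at 0.22 (SE 0.0512), as was PCL5, a Pho85 cyclin that targets Gcn4, at 0.38 (SE 0.075). The G1/S transcription factor genes SWI4, SWI6 and MBP1 were not called, at -0.17, -0.17 and -0.01.

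Replication genes followed the same direction, with 21 of 40 called lower and 0 higher and a median of -0.21. CDC6, the origin licensing factor, had 11.1, 7.84 and 9.54 CPM in K504E-red, against 24.9, 21.3 and 17.8 CPM in WT-red. The change was -1.17 (SE 0.156, edgeR adjusted p 1.10e-05). POL30, the sliding clamp PCNA, had 70.5, 79.4 and 72.6 CPM in K504E-red, against 141, 143 and 128 CPM in WT-red, a change of -0.89 (SE 0.0707, edgeR adjusted p 9.39e-08). CDC45, RAD27 and MCM2, which act in the replicative helicase and in flap removal, changed by -0.72 (SE 0.121), -0.60 (SE 0.0759) and -0.44 (SE 0.0742). Summed over the list, replication transcripts took 0.230%, 0.228% and 0.229% of the scaled counts in K504E-red, against 0.269%, 0.272% and 0.271% in WT-red. Of 9 histone genes, 4 were called lower, with HTB2 at -0.35 (SE 0.0542) and HHF1 at -0.32 (SE 0.0515). HHF1 has a near-identical copy, HHF2, so reads could have been shared between them. Among 24 genes of homologous recombination, postreplication repair and resection, 4 were called lower and 0 higher, with a median of -0.01. The share called lower was 16.7%, below the 21.7% of all tested genes. The lower members included RTT107 at -0.51 (SE 0.0767) and SMC6 at -0.47 (SE 0.0819). Without K504E-red replicate 1 or WT-red replicate 3, 1 gene was higher. The lower count was 7 under DESeq2 or upper quartile scaling, under both other count filters and by DESeq2's Wald test.

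Genes of adenine synthesis were mostly higher in K504E-red, and those of salvage and the GTP branch moved both ways. Of 12 genes of de novo purine synthesis, 9 were called higher, with a median of 0.30. ADE1, which acts directly after Ade2, had 250.3, 244 and 259.6 CPM in K504E-red, against 161, 156 and 172 CPM in WT-red. It changed by 0.62 (SE 0.0551, edgeR adjusted p 2.46e-07). ADE12 and ADE13, which form AMP from inosine monophosphate, changed by 0.51 (SE 0.0631) and 0.40 (SE 0.0509). Smaller rises were found for ADE8 (0.32), ADE57 (0.28), ADE16 (0.18) and ADE6 (0.15), with the ADE16 call lost without K504E-red replicate 1 (0.0651), K504E-red replicate 2 (0.0721), WT-red replicate 1 (0.074) or WT-red replicate 2 (0.0565) and that of ADE6 without K504E-red replicate 2 (0.0778), K504E-red replicate 3 (0.237) or WT-red replicate 1 (0.1005). ADE4, the first enzyme of the pathway, was not called at 0.08 (SE 0.0552). Of the transcription factors of the pathway, BAS1 was not called at -0.09 and PHO2 was called lower at -0.18 (SE 0.0646). The PHO2 call was lost without K504E-red replicate 3 (0.0734) or WT-red replicate 3 (0.0651). The list's summed share was 0.404%, 0.383% and 0.397% of scaled counts in K504E-red, against 0.306%, 0.296% and 0.326% in WT-red.

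On the salvage and GTP side, 7 of 13 genes (53.8%) were called lower and 3 (23.1%) higher, with a median of -0.17. Over all tested genes, 21.7% were lower and 25.8% higher. IMD4, an inosine monophosphate dehydrogenase that commits purines to GTP, had 217, 229 and 246 CPM in K504E-red, against 466, 517 and 414 CPM in WT-red. The change was -1.01 (SE 0.0696, edgeR adjusted p 3.93e-08). GUA1, which makes GMP, changed by -0.75 (SE 0.075), and APT1, the adenine phosphoribosyltransferase, by -0.44 (SE 0.0509), beside the fall of AAH1 given above. GUD1, the guanine deaminase, was higher at 0.48 (SE 0.0878), as was AMD1, the AMP deaminase, at 0.25 (SE 0.0621).

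Genes of one-carbon metabolism, which feeds purine synthesis, moved both ways. The genes of the glycine cleavage complex rose, with GCV1 at 55.03, 67.8 and 67.4 CPM in K504E-red, against 33.8, 30.3 and 43.9 CPM in WT-red. Its change was 0.82 (SE 0.11, edgeR adjusted p 1.17e-05), and those of GCV2 and GCV3 were 0.63 (SE 0.0842) and 0.59 (SE 0.0669). MTD1 and SHM2, cytosolic folate enzymes, changed by 0.51 (SE 0.0819) and 0.29 (SE 0.0656). MIS1, the mitochondrial folate enzyme, was lower at -0.63 (SE 0.0777), and FOL1, of folate synthesis, at -0.31 (SE 0.0587). Over the list, 6 of 16 genes (37.5%) were called higher and 4 (25%) lower, beside 25.8% and 21.7% of all tested genes. Of 14 genes of serine, glycine and threonine metabolism, 4 (28.6%) were higher and 1 (7.14%), CHA1, was lower. That higher share was close to the 25.8% of all tested genes. Without WT-red replicate 2 the lower count was 3. SRY1, a dehydratase of hydroxyaspartate, had 162, 142 and 184 CPM in K504E-red, against 102, 86.1 and 97.1 CPM in WT-red, a change of 0.78 (SE 0.0879, edgeR adjusted p 2.49e-06). SER33, the paralog of SER3, was not called at -0.06 (SE 0.0804).

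Genes for glutathione, electrophile detoxification and peroxide removal were mostly higher in K504E-red. Of 21 glutathione genes, 16 were called higher and 1 lower, with a median of 0.33. GSH1, the rate-limiting enzyme of glutathione synthesis, had 752, 688 and 761 CPM in K504E-red, against 579, 563 and 614 CPM in WT-red, a change of 0.33 (SE 0.0541). GLR1, glutathione reductase, changed by 0.35 (SE 0.0521), and the glutaredoxin GRX1 by 0.52 (SE 0.0558). DUG3, part of the complex that degrades glutathione, was the lower member at -0.40 (SE 0.0827), and without K504E-red replicate 2 the lower count was 2. The list took 0.729%, 0.685% and 0.720% of scaled counts in K504E-red, against 0.525%, 0.525% and 0.565% in WT-red.

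Of 16 genes on the list of electrophile reductases and Yap1 exporters, 13 were called higher and 0 lower, with a median of 0.48. Control of these genes by Yap1 was not tested. OYE3, an old yellow enzyme that reduces unsaturated carbonyls, had 1027, 852 and 1089 CPM in K504E-red, against 395, 603 and 629 CPM in WT-red. WT-red replicate 1 was the lowest library, and the change was 0.87 (SE 0.127, edgeR adjusted p 2.85e-05). OYE2, its paralog, had 2962, 2753 and 3528 CPM in K504E-red, against 1847, 1851 and 1979 CPM in WT-red, a change of 0.70 (SE 0.0774). FRM2, a nitroreductase-like gene, had 171, 129.8 and 243 CPM in K504E-red, against 66.3, 121 and 109 CPM in WT-red. K504E-red replicate 2 lay close to WT-red replicate 2 without overlap, and the change was 0.87 (SE 0.189, edgeR adjusted p 0.00115). AAD6 and FLR1, an aryl alcohol dehydrogenase and a drug exporter, changed by 0.62 (SE 0.103) and 0.58 (SE 0.093). Without WT-red replicate 1 the list's higher count was 8 and 1 member was lower. YAP1 itself, the transcription factor, changed by 0.19 (SE 0.0516), a call lost without K504E-red replicate 2 (0.0571) or WT-red replicate 1 (0.0896).

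Of 24 peroxide defence genes, 17 were higher and 2 lower, with a median of 0.28. SOD1, the cytosolic superoxide dismutase, had 3451, 3275 and 3348 CPM in K504E-red, against 2346, 2206 and 2399 CPM in WT-red. Its change was 0.54 (SE 0.0516, edgeR adjusted p 5.43e-07). SOD2, the mitochondrial enzyme, changed by 0.42 (SE 0.0497), and the peroxiredoxins TSA2 and PRX1 by 0.52 (SE 0.0582) and 0.52 (SE 0.0534). Thioredoxin TRX2 changed by 0.51 (SE 0.0639). MXR1, a methionine sulfoxide reductase, was lower at -0.31 (SE 0.0871), and GRX3, a regulator of iron sensing, at -0.16 (SE 0.0578). The GRX3 call was lost without K504E-red replicate 3 (0.0622) or WT-red replicate 3 (0.0862).

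Transcripts of cytosolic ribosome assembly factors, ribosomal proteins, RNA polymerases I and III and translation factors were mostly lower in K504E-red. On the ribosome biogenesis list 119 of 121 genes were called lower and 0 higher, with a median of -0.64, beside 21.7% of all tested genes called lower. The 2 members not called were TSR3 at -0.04 (SE 0.0791) and SPB4 at -0.04 (SE 0.0657). NOP1, the fibrillarin methyltransferase of the nucleolus, had 479, 526 and 561 CPM in K504E-red, against 823, 899 and 797 CPM in WT-red, a change of -0.69 (SE 0.0617). FAF1, an early rRNA processing factor, had 12.9, 17.5 and 19.1 CPM in K504E-red, against 34.2, 37.4 and 29.6 CPM in WT-red, a change of -1.03 (SE 0.132, edgeR adjusted p 7.23e-06). The list took 1.03%, 1.20% and 1.23% of scaled counts in K504E-red, against 1.72%, 1.94% and 1.64% in WT-red, with no overlap.

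The cytosolic ribosomal protein genes in the count table moved almost as a block. Family members absent from it are not covered. Of 67 genes, 66 were called lower, with a median of -0.48 and an interquartile range of -0.51 to -0.45. RPS22A had 727, 736 and 786 CPM in K504E-red, against 1202, 1200.1 and 1047 CPM in WT-red, a change of -0.62 (SE 0.0605, edgeR adjusted p 6.77e-07). RPL9B was the gene not called, at -0.09 (SE 0.058). Near-identical copies were found for 13 of the 67, with a median of -0.46. The 54 genes without such a copy had a median of -0.48, and 53 of them were called. As a share of scaled counts, the 67 genes took 6.05%, 6.34% and 6.49% in K504E-red, against 9.02%, 8.66% and 8.03% in WT-red.

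RNA polymerases I and III, which transcribe rRNA and tRNA, were called lower in 24 of 33 genes and higher in 0, with a median of -0.40. RPA135, the second largest subunit of polymerase I, had 189, 201 and 217 CPM in K504E-red, against 320.1, 397 and 326 CPM in WT-red. RPC17, of polymerase III, had 8.31, 11.7 and 9.85 CPM in K504E-red, against 16.2, 19.4 and 16.3 CPM in WT-red. The changes were -0.78 (SE 0.0747, edgeR adjusted p 5.22e-07) and -0.80 (SE 0.146, edgeR adjusted p 2.30e-04). Of 34 translation factors, 29 were called lower and 3 higher, with a median of -0.31. EFB1, the exchange factor of translation elongation, had 941, 982 and 932 CPM in K504E-red, against 1570.3, 1461 and 1378 CPM in WT-red, a change of -0.63 (SE 0.0553, edgeR adjusted p 2.46e-07). TIF3, an initiation factor, changed by -0.40 (SE 0.0503). TIF4632, a form of the eIF4G scaffold, was higher at 0.22 (SE 0.053), and the higher count was 1 without K504E-red replicate 3 or WT-red replicate 1.

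**Figure D4:**
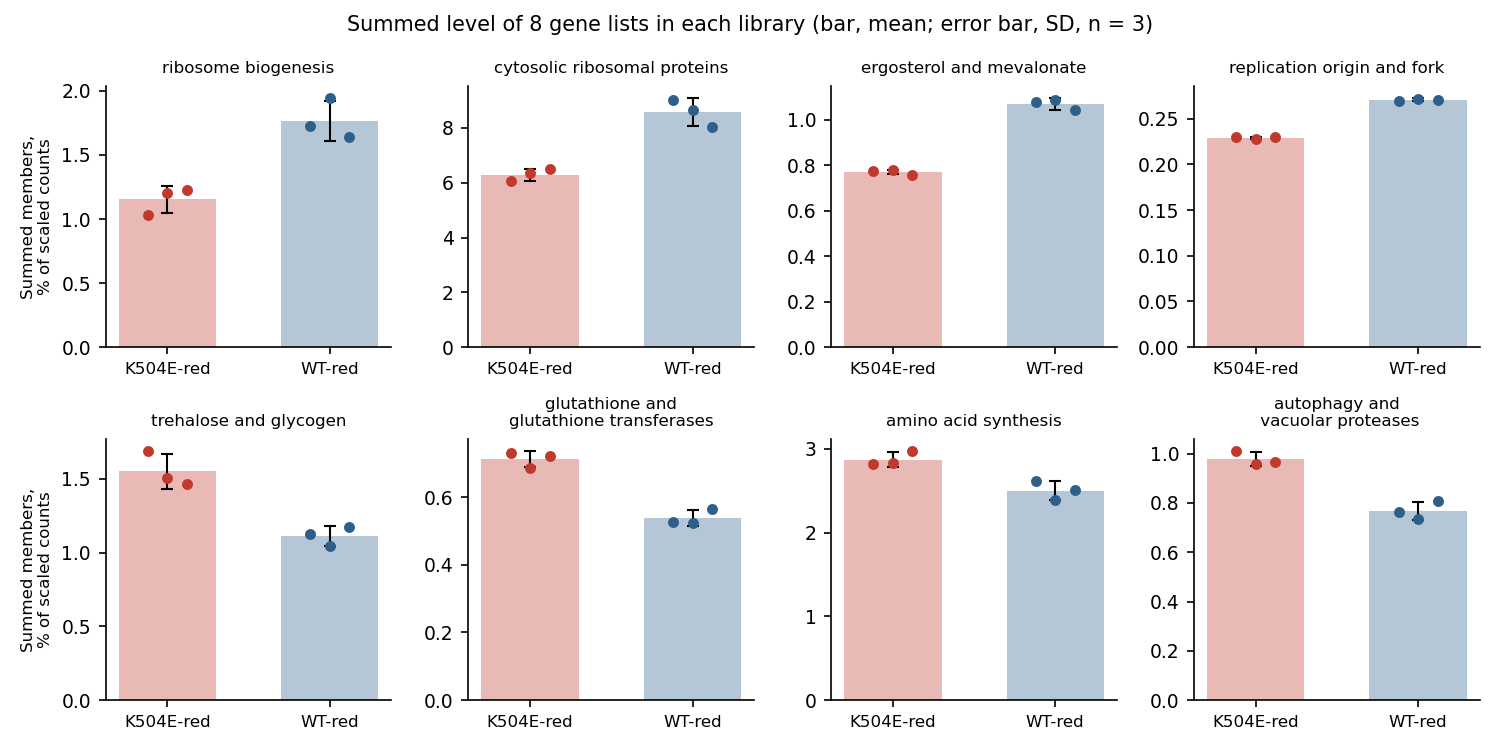
Summed CPM of 8 gene lists as a percent of scaled counts (vertical axis from 0) in each library, K504E-red left of WT-red; bars are means, error bars SD and dots the 3 libraries. The upper row (ribosome biogenesis, ribosomal proteins, ergosterol, replication) is lower in K504E-red in every library and the lower row (trehalose and glycogen, glutathione, amino acid synthesis, autophagy) is higher.

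Transcripts of sterol and fatty acid synthesis genes were mostly lower in K504E-red. Of 25 genes of the mevalonate and ergosterol pathway, 20 were called lower and 0 higher, with a median of -0.46. HMG1, the main reductase that controls the pathway's rate, had 141, 138 and 126 CPM in K504E-red, against 247, 265 and 235 CPM in WT-red. The change was -0.89 (SE 0.112, edgeR adjusted p 6.42e-06). ERG11, the target of azole antifungals, had 720.4, 729 and 726 CPM in K504E-red, against 1160.0, 1099 and 1052 CPM in WT-red, a change of -0.61 (SE 0.0754). ERG13, ERG25 and ERG3 changed by -0.87 (SE 0.0787), -0.62 (SE 0.0658) and -0.77 (SE 0.0572). ERG9, ERG4 and HMG2 were not called, at -0.05, -0.06 and -0.02. The pathway took 0.774%, 0.778% and 0.759% of scaled counts in K504E-red, against 1.08%, 1.09% and 1.04% in WT-red.

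Of 21 genes of fatty acid and phospholipid synthesis, 15 were lower and 0 higher, with a median of -0.40. FAA3, an acyl-CoA synthetase, had 28.1, 29.9 and 33.2 CPM in K504E-red, against 52.95, 50.4 and 45.4 CPM in WT-red, a change of -0.71 (SE 0.0891, edgeR adjusted p 6.17e-06). INO2, the activator of phospholipid genes, had 19.1, 20.2 and 21.95 CPM in K504E-red, against 33.1, 36.2 and 31.02 CPM in WT-red, a change of -0.71 (SE 0.0995, edgeR adjusted p 1.76e-05). OLE1, the only fatty acid desaturase of this yeast, changed by -0.51 (SE 0.0658), and ITR1, an inositol transporter, by -0.67 (SE 0.0637). FAS1 and ACC1, fatty acid synthase and acetyl-CoA carboxylase, changed by -0.37 (SE 0.052) and -0.42 (SE 0.0556).

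Genes that answer to oxygen and heme moved both ways. Of 6 anaerobic mannoprotein genes, DAN1, TIR1 and TIR3 were called lower, TIR3 at -0.32 (SE 0.118), and TIR2, TIR4 and DAN4 were not called, at 0.33, -0.27 and 0.11. The TIR3 call was lost without K504E-red replicate 1 (0.0592), K504E-red replicate 2 (0.0807) or WT-red replicate 1 (0.129). In the heme and hypoxia list 6 of 21 genes (28.6%) were lower and 3 (14.3%) higher, with a median of -0.04. Over all tested genes, 21.7% were lower and 25.8% higher. The higher count was 1 without K504E-red replicate 2, K504E-red replicate 3 or WT-red replicate 1. ANB1, the hypoxic form of translation factor eIF5A, had 300.2, 320.0 and 277 CPM in K504E-red, against 515, 508 and 471 CPM in WT-red. The change was -0.74 (SE 0.0614, edgeR adjusted p 1.44e-07). HEM13, an oxygen-dependent heme synthesis enzyme, changed by -0.57 (SE 0.0721). The hypoxic activator UPC2 changed by -0.57 (SE 0.11), and the repressors MOT3 and ROX1 by -0.67 (SE 0.0888) and -0.47 (SE 0.11). HAP1, the heme-responsive activator, was higher at 0.45 (SE 0.0526).

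Transcripts of storage carbohydrate and general stress genes were mostly higher. Of 19 trehalose and glycogen genes, 15 were called higher and 0 lower, with a median of 0.44. TSL1, a regulatory subunit of trehalose synthase, had 1689.5, 1559 and 1566 CPM in K504E-red, against 904, 874 and 992 CPM in WT-red. Its change was 0.80 (SE 0.0612, edgeR adjusted p 6.89e-08). GLG1, the glycogenin that primes glycogen, had 244, 212 and 221 CPM in K504E-red, against 135, 141 and 156 CPM in WT-red, a change of 0.65 (SE 0.0642). GSY2, the main glycogen synthase, changed by 0.62 (SE 0.0558), and so did enzymes that break glycogen down, with GDB1 at 0.64 (SE 0.0611) and GPH1 at 0.48 (SE 0.0619). The list took 1.69%, 1.503% and 1.47% of scaled counts in K504E-red, against 1.13%, 1.04% and 1.18% in WT-red.

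Of 34 genes written for the stationary phase and general stress list, 24 were in the count table. Of these, 19 (79.2%) were higher and 0 lower, beside 25.8% and 21.7% of all tested genes. The median was 0.41. Without WT-red replicate 1 the lower count was 2. GND2, a stress form of a pentose phosphate enzyme, had 70.7, 46.9 and 72.8 CPM in K504E-red, against 35.4, 40.2 and 39.5 CPM in WT-red, a change of 0.73 (SE 0.141, edgeR adjusted p 4.26e-04). YGP1, a secreted glycoprotein of nutrient-limited cells, had 4618, 4931 and 5278 CPM in K504E-red, against 3148, 3002 and 3349 CPM in WT-red, a change of 0.64 (SE 0.0589). GRE1, a hydrophilin, had 15.5, 11.8 and 25.2 CPM in K504E-red, against 8.84, 10.1 and 10.2 CPM in WT-red. K504E-red replicate 3 was the highest library, and without it the GRE1 call was lost, with an adjusted p of 0.0681 by edgeR. HSP12, a membrane-stabilising stress protein, changed by 0.38 (SE 0.131, edgeR adjusted p 0.0245), although its groups overlapped and the call was lost without K504E-red replicate 1 (0.106), K504E-red replicate 3 (0.0811) or WT-red replicate 1 (0.219). The stress regulator MSN4 was higher at 0.30 (SE 0.0525), while MSN2 was not called at -0.10 (SE 0.0746).

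Genes of central carbon metabolism were mostly higher. Of 18 genes of glycolysis and fermentation, 14 were higher and 1, PDC5, was lower, with a median of 0.29. HXK1, the hexokinase that is released from glucose repression, had 7526, 6752 and 6554 CPM in K504E-red, against 4569.8, 4057 and 4804 CPM in WT-red. Its change was 0.63 (SE 0.0668, edgeR adjusted p 1.34e-06). GLK1, glucokinase, changed by 0.54 (SE 0.0589); it has a partial near-identical copy. When the 20 most abundant genes, which include several of these enzymes, were left out, the higher count was 6. Of 13 hexose transporters and sensors, 5 were higher and 2 lower, with the glucose-signalling factors MTH1 and MIG1 at 0.50 (SE 0.0623) and 0.47 (SE 0.0713) and the transporter HXT2 lower at -0.29 (SE 0.0765). Without K504E-red replicate 1, WT-red replicate 1 or WT-red replicate 2, the lower count was 1.

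In the TCA cycle, 13 of 16 genes were higher and 0 lower, with a median of 0.29. CIT1, the mitochondrial citrate synthase, had 907, 933 and 912 CPM in K504E-red, against 708, 654 and 696 CPM in WT-red, a change of 0.42 (SE 0.0491, edgeR adjusted p 3.29e-06). NDI1, the internal NADH dehydrogenase of the respiratory chain, had 508, 499.8 and 503.7 CPM in K504E-red, against 362, 351 and 390.5 CPM in WT-red, a change of 0.45 (SE 0.0513, edgeR adjusted p 2.49e-06). The respiratory chain and ATP synthase list had 15 of 24 nuclear genes higher, with a median of 0.19, and 9 without K504E-red replicate 2. Mitochondrial ribosomal protein genes changed little but in 1 direction, with 35 of 64 higher, 0 lower and a median of 0.18, or 0.12 without K504E-red replicate 2. MRPL4 led these at 0.35 (SE 0.0791). That count varied with single libraries, at 13 without K504E-red replicate 2, 20 without K504E-red replicate 3 and, with WT-red replicate 1 or 2 left out, 19.

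Genes for carbon sources other than glucose were called higher in part. Of 18 glyoxylate, gluconeogenesis and acid uptake genes, 8 were higher and 0 lower, with a median of 0.23. The gluconeogenic enzymes PCK1 and FBP1 and the glyoxylate enzyme ICL1 were not called, at 0.27, -0.05 and 0.10. AGX1, which makes glycine from glyoxylate, was higher at 0.56 (SE 0.109). Of 14 beta-oxidation genes 9 were higher, among them SPS19 at 0.87 (SE 0.163, edgeR adjusted p 3.11e-04). The beta-oxidation count was 4 without K504E-red replicate 1 or K504E-red replicate 3, 3 without WT-red replicate 1 and 5 without WT-red replicate 2.

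Genes of amino acid synthesis moved both ways. Of 50 genes, 26 were higher and 7 lower, with a median of 0.14. Histidine and arginine genes led the rise, with HIS5 at 0.69 (SE 0.0588), ARG3 at 0.67 (SE 0.0659) and ARG1 at 0.66 (SE 0.0847). ARG1, argininosuccinate synthetase, had 819, 829 and 823 CPM in K504E-red, against 579, 463 and 527 CPM in WT-red. GCN4, the transcriptional activator of many of these genes, was not called at 0.01 (SE 0.0524), although Gcn4 is controlled mainly at translation. ILV5, of branched-chain synthesis, was lower at -0.44 (SE 0.053), and ARO7, chorismate mutase, at -0.47 (SE 0.0773). The list took 2.82%, 2.83% and 2.97% of scaled counts in K504E-red, against 2.61%, 2.39% and 2.504% in WT-red.

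Of 24 sulfur assimilation genes, 10 were lower and 3 higher, with a median of -0.08. SAM2, which makes S-adenosylmethionine, had 443, 434 and 356 CPM in K504E-red, against 738, 640.2 and 706 CPM in WT-red. The change was -0.76 (SE 0.0785, edgeR adjusted p 1.15e-06). STR3, a lyase on the route from cysteine to methionine, changed by -0.63 (SE 0.109), and STR2, the synthase that precedes it on that route, was higher at 0.40 (SE 0.0637). Of 26 genes under nitrogen catabolite control, 12 were higher and 2 lower, with a median of 0.19, and 7 were higher without K504E-red replicate 3. The median of this list was 0.09 without WT-red replicate 2. UGA2, of 4-aminobutyrate use, had 161, 184 and 198 CPM in K504E-red, against 127, 107 and 116 CPM in WT-red, a change of 0.63 (SE 0.0767, edgeR adjusted p 4.27e-06), and the arginase CAR1 was lower at -0.40 (SE 0.0973). Without K504E-red replicate 3 or WT-red replicate 3, 1 gene of this list was lower. Among 19 amino acid permeases, 5 (26.3%) were higher and 2 lower, with a median of 0.05 that took both signs under other settings. The higher share was close to the 25.8% of all tested genes, and the lower share was below their 21.7%. Higher members included AGP1 and BAP2 at 0.37 (SE 0.0617) and 0.37 (SE 0.0526). The lower members were GNP1 at -0.41 (SE 0.0538) and SAM3 at -0.29 (SE 0.072).

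Autophagy genes and vacuolar proteases were called higher in 24 of 41 members and lower in 0, with a median of 0.22. APE1, an aminopeptidase delivered by selective autophagy, had 1823, 1669.8 and 1739 CPM in K504E-red, against 1006, 945 and 1164 CPM in WT-red. The change was 0.75 (SE 0.0661, edgeR adjusted p 2.46e-07). ATG32, the receptor for removal of mitochondria, changed by 0.47 (SE 0.102), PEP4, the master vacuolar protease, by 0.36 (SE 0.0571), and ATG8, the ubiquitin-like core protein, by 0.20 (SE 0.0681). The ATG8 call was lost without K504E-red replicate 1 (0.0986), K504E-red replicate 2 (0.106), WT-red replicate 2 (0.0804) or WT-red replicate 3 (0.062). The list took 1.01%, 0.956% and 0.967% of scaled counts in K504E-red, against 0.762%, 0.735% and 0.807% in WT-red.

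Protein folding and turnover genes moved both ways. Of 24 heat shock chaperones, 9 (37.5%) were higher and 6 (25%) lower, beside 25.8% and 21.7% of all tested genes. The median was 0.04, or -0.01 without K504E-red replicate 1, and just below 0 when K504E-red replicate 3 was left out. Higher members included the stress-induced SSA4 at 0.51 (SE 0.0875) and HSP104, the disaggregase, at 0.41 (SE 0.0592). Lower members included YDJ1 at -0.50 (SE 0.0462) and the ribosome-associated SSB1 at -0.45 (SE 0.057) and SSZ1 at -0.36 (SE 0.0498). SSB1 has a near-identical copy, SSB2. Of 18 genes of endoplasmic reticulum folding, 7 were lower, among them KAR2 at -0.29 (SE 0.0707) and JEM1 at -0.37 (SE 0.0866), and 0 higher, or 1 higher without WT-red replicate 3. Of 33 proteasome genes 6 were higher and 0 lower, with a median of 0.07. The share called higher was 18.2%, below the 25.8% of all tested genes. The higher count was 2 without any 1 of the K504E-red replicates and 1 without WT-red replicate 1.

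Metal, phosphate and vitamin genes showed smaller patterns. Of 25 iron regulon genes, 11 (44%) were higher and 4 (16%) lower, beside 25.8% and 21.7% of all tested genes. The list had a median of 0.18. FET3 and FTR1, the high-affinity iron oxidase and its permease, were among the lower genes, at -0.65 (SE 0.0951) and -0.47 (SE 0.0699), while FRE5, a reductase homologue, was higher at 0.42 (SE 0.0799). The higher count in this list was 6 without K504E-red replicate 2 or WT-red replicate 2, 5 without K504E-red replicate 3, and with WT-red replicate 1 left out it was 7. The median was 0.11 without K504E-red replicate 3, and 0.12 when WT-red replicate 1 was left out. Of 15 thiamine and vitamin B6 genes 9 were higher, or 5 without K504E-red replicate 3. THI4, of thiamine synthesis, had 8.31, 8.68 and 11.2 CPM in K504E-red, against 3.77, 4.34 and 6.45 CPM in WT-red, a change of 0.96 (SE 0.194, edgeR adjusted p 6.48e-04). Of 16 phosphate genes 6 (37.5%) were higher and 1 (6.25%) lower, and 3 were higher without K504E-red replicate 2. Without K504E-red replicate 1 or WT-red replicate 1, 0 were lower. PHM8, a nucleotide phosphatase, changed by 0.53 (SE 0.0954).

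For the cell surface, the cell wall integrity list had 5 of 27 genes higher and 5 lower, 18.5% in each direction. Over all tested genes, 25.8% were higher and 21.7% lower. The median of the list was 0.04, which was -0.03 without K504E-red replicate 3 and -0.02 when WT-red replicate 1 was left out. GSC2, the stress form of glucan synthase, had 198, 217 and 250.4 CPM in K504E-red, against 134, 142 and 151 CPM in WT-red, a change of 0.64 (SE 0.0744, edgeR adjusted p 3.03e-06). PST1, a wall protein induced by damage to the wall, changed by 0.59 (SE 0.0822). WSC2, a wall sensor, and CHS3, chitin synthase, were lower at -0.36 (SE 0.0605) and -0.35 (SE 0.0612). The higher count was 3 without K504E-red replicate 2, K504E-red replicate 3, WT-red replicate 1 or WT-red replicate 3. In the glycerol and osmotic list 8 of 15 genes were higher and 2 lower, with GPP2, a glycerol phosphatase, at 0.76 (SE 0.0832) and the sensor SHO1 lower at -0.52 (SE 0.068). Without K504E-red replicate 1, K504E-red replicate 3, WT-red replicate 2 or WT-red replicate 3, 1 gene was lower.

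**Figure D5:**
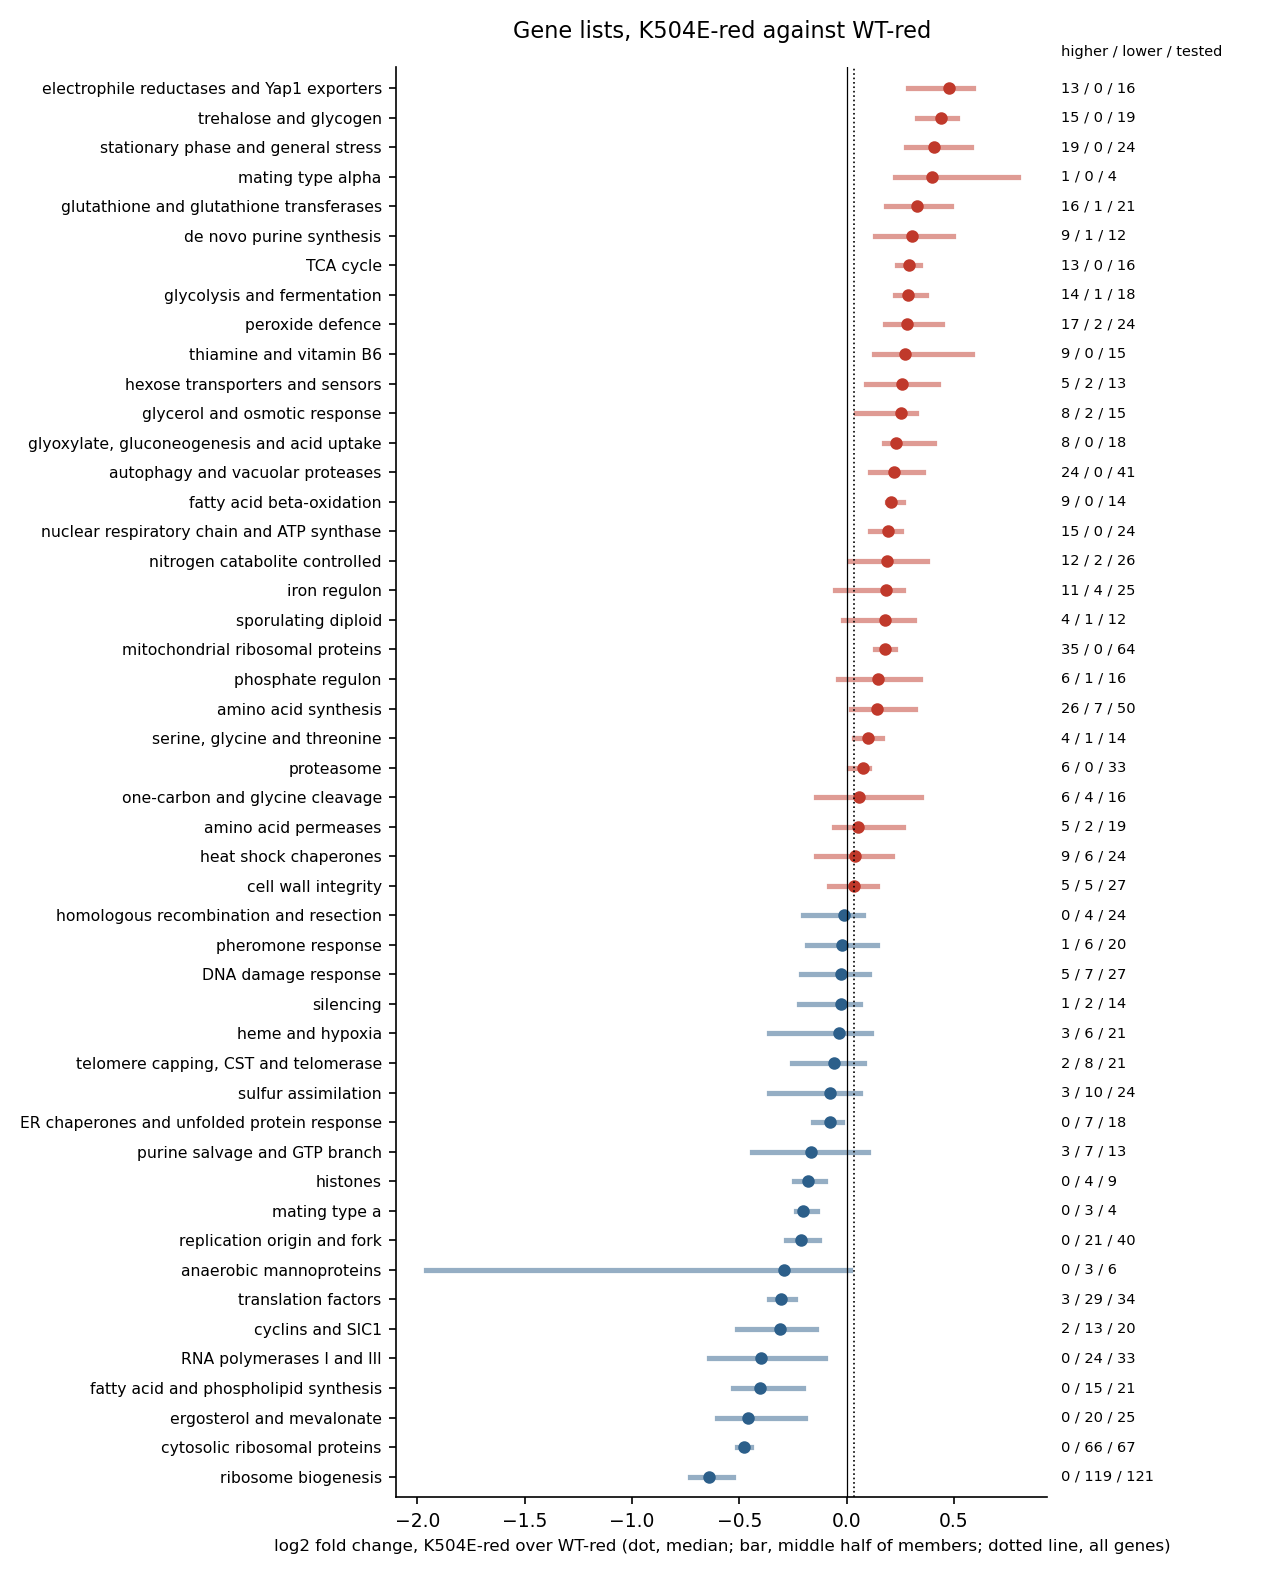
Median log2 fold change (dot) and interquartile range of members (bar) of each of 48 gene lists, K504E-red over WT-red on the horizontal axis, with the numbers called higher, called lower and tested at the right. The dotted line is the median of all genes at 0.03; ribosome biogenesis lies lowest at -0.64 and the electrophile reductases and Yap1 exporters highest at 0.48.

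Genes of mating type and sporulation were examined as markers of other cell states. Of 4 mating type a genes measured, STE2, STE6 and BAR1 were lower, at -0.17 (SE 0.0515), -0.23 (SE 0.0569) and -0.26 (SE 0.0558), and ASG7 was not called at -0.03. Of the 4 alpha genes 1 was called: SAG1, the alpha agglutinin, was called higher at 0.28 (SE 0.0917), with that call lost without K504E-red replicate 2 (0.0587), K504E-red replicate 3 (0.131), WT-red replicate 1 (0.118) or WT-red replicate 2 (0.0703). Summed, the 4 alpha genes took 0.00656%, 0.00650% and 0.00703% of scaled counts in K504E-red, against 0.00533%, 0.00540% and 0.00601% in WT-red. Of 20 pheromone response genes, 6 (30%) were lower and 1 (5%) higher, beside 21.7% and 25.8% of all tested genes. AGA1, an agglutinin subunit, was at -0.45 (SE 0.0937) and the fusion gene PRM1 at 0.77 (SE 0.165). Without WT-red replicate 1, 2 pheromone response genes were higher. Of 12 meiotic and spore genes, 4 (33.3%) were higher and 1 (8.33%), SPS4, was lower at -1.11 (SE 0.209). Leaving out K504E-red replicate 3 left 1 higher, and leaving out K504E-red replicate 2, WT-red replicate 1 or WT-red replicate 2 left 2.

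Of 14 silencing factors, which repress genes near telomeres, 1 (7.14%) was called higher and 2 (14.3%) lower. Over all tested genes, 25.8% were higher and 21.7% lower. The remaining 11 were not called, as were 2717 of the 5172 genes tested. HST1 was not in the count table and is not analysed here. HST2, a cytosolic sirtuin, changed by 0.35 (SE 0.0578). SIR3 and SIR4 were not called at 0.03 (SE 0.0684) and 0.07 (SE 0.0939). SAS2, an acetyltransferase, was lower at -0.31 (SE 0.12), and its call was lost without K504E-red replicate 1 (0.233), WT-red replicate 2 (0.126) or WT-red replicate 3 (0.0722). HST3, a nuclear sirtuin, was lower at -0.23 (SE 0.0933, edgeR adjusted p 0.0498), a call lost without K504E-red replicate 2 (0.0505), K504E-red replicate 3 (0.158), WT-red replicate 2 (0.09003) or WT-red replicate 3 (0.128). Leaving out K504E-red replicate 1 left 1 lower gene, and leaving out WT-red replicate 2 or WT-red replicate 3 left 0. SIR2 had 37.5, 22.4 and 39.9 CPM in K504E-red, against 23.7, 43.2 and 50.8 CPM in WT-red. It was not called, with a log2 fold change of -0.24 (SE 0.215, edgeR adjusted p 0.387). WT-red replicate 1 lay well below the other WT-red libraries, and K504E-red replicate 2 well below the other K504E-red libraries.

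Among genes next to chromosome ends, 43.2% were called higher and 4.55% lower, beside 25.8% and 21.7% of all tested genes. By their order among all protein-coding genes of S288C, 44 tested genes were among the 5 outermost of an arm. Of these, 19 were higher and 2 lower, with a median log2 fold change of 0.23. Many of the outermost S288C genes were not tested, so these counts do not cover every such position. Among the 118 genes in positions 6 to 10, 31 were higher and 19 lower (median 0.07). Among the 3046 genes beyond position 80, 759 were higher and 685 lower (median 0.02). Leaving out K504E-red replicate 3 left 12 of the outermost genes higher (median 0.19), and leaving out WT-red replicate 1 left 9 (median 0.15). The lower count was 1 without K504E-red replicate 2, WT-red replicate 2 or WT-red replicate 3. Whether position itself sets apart these genes was not tested. Several of these genes are also members of lists described above. They included HXK1, GTT1, HYR1, YML131W and SNZ2, chosen after their values were seen. YPS6, a gene of the yapsin protease family, had 137, 119 and 133 CPM in K504E-red, against 66.6, 76.1 and 101 CPM in WT-red, a change of 0.68 (SE 0.107, edgeR adjusted p 6.21e-05). RDS1, a zinc cluster factor, changed by 0.50 (SE 0.1005), and ARR3, an arsenite exporter, by 0.48 (SE 0.107). The lower genes were SEO1, given above, and COS10 at -0.49 (SE 0.178), whose groups overlapped. Many subtelomeric genes have near-identical relatives, and without the genes that have such a copy the median of the outermost positions was 0.22.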

How the data were processed

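Poly(A) RNA of 3 biological replicates per group was sequenced and counted by the authors. The deposited table holds raw read counts per gene for 5205 genes on contigs of a W303 assembly, and a second deposited table holds FPKM values, which divide the count by gene length and library total. The aligner, the counting tool and whether strand was used are not given in the sources used here, so reads of a gene and an overlapping or antisense partner could not be told apart.

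Counts were fitted with edgeR 4.0.16 (R 4.3.3) in 1 quasi-likelihood model over 9 libraries with group as the only term, after TMM scaling and filterByExpr with a minimum count of 10. The third group, white cdc13-K504E colonies, contributed to the scaling, the filter and the spread. K504E-red was set against WT-red with Benjamini-Hochberg adjustment over 5172 genes, and a gene was called at an adjusted p under 0.05. The remaining 33 genes were not tested. CPM were computed from the same scaling. P-values set the difference between groups against a spread between replicates that was estimated over all 9 libraries. The fit was tested on simulated data: with 200 of 5171 genes changed, it recovered 84% of 1.3-fold and 100% of 2-fold changes and called 5 unchanged genes. These figures hold for that setting only. Recovery with as many changes as the 2455 of 5172 genes called here was not tested.

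Gene symbols came from the RefSeq annotation of S288C R64 by locus tag and matched 5162 genes. Coordinates are those of the deposited table, on W303 contigs, and chromosome numbers and gene order are those of S288C. Near-identical copies (BLAST 2.17.0, at least 95% identity over at least 100 bp) were found for 100 genes. A planned promoter motif search was not run and no sequence is shown, because no W303 genome was used here.

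The comparison and the 48 gene lists were chosen with earlier results of these data known. Over the lists, 103 written members were not in the count table, so list counts do not cover them. Genes named are CDC13, ADE2, STE2, STE3, the telomere and DNA damage lists, the 12 largest called changes per direction with separate groups and a mean of at least 10 CPM in the higher group, and, in each list, the 2 called members with the largest changes in each direction, less some with unstable calls. Further genes were chosen after their values were seen. 1 gene is not reported here. Alternatives were other scalings (DESeq2 1.42.0 size factors, upper quartile), filters and tests (DESeq2, limma 3.58.1), the 6 libraries alone, a replicate block, abundant genes left out, a gene length correction and each library left out in turn.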

Additional observations from a re-analysis of the deposited data

How the results depend on the processing

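Over 18 alternatives, 2019 to 2493 genes were called, against 2455 as reported, and 0 genes called in both changed direction. The number changed at least 2-fold was 27 to 45, against 36. With each library left out in turn, 2019 to 2332 genes were called, of which 926 to 1287 were higher and 988 to 1172 lower, and 28 to 45 were changed at least 2-fold. With only the 6 libraries compared, 2220 were called, 1047 higher and 1173 lower. The split moved with the setting: 54.3% of calls were higher as reported, against 45.8% with a filter of at least 1 count, 46.0% with at least 10 counts in every library, 47.2% with only the 6 libraries compared, 47.9% with upper quartile scaling and 44.8% without K504E-red replicate 3, while the median log2 fold change of all genes lay between -0.00429 and 0.0418.

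Replicate numbers did not pair the samples: deviations of same-numbered libraries correlated at 0.0132, -0.00943 and -0.0160, against -0.113 to 0.135 for other pairs. With the replicate block 2389 genes were called, 1293 higher and 1096 lower.

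Of 14007 values of single genes under the alternatives, 13239 kept their direction and their side of the threshold, 765 lost their call and 3 changed sign. The sign changes were those of CDC13, EST1 and STN1, none of them called as reported. With each library left out, CDC13 lay between -0.00904 (without K504E-red replicate 2) and 0.282, EST1 between -0.0836 and 0.0231 (without WT-red replicate 2), and STN1 between -0.153 and 0.0468 (without WT-red replicate 3). Of 882 list medians under the alternatives 67 moved by more than the spread between replicates, and those of heat shock chaperones (-0.0107 to 0.0473), amino acid permeases (-0.00461 to 0.0874) and cell wall integrity genes (-0.0338 to 0.0726) took both signs.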

Other observations

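In a few genes 1 library stood apart from its own group. These genes were picked after the data were seen, as genes in which 1 library lay at least 0.9 on the log2 scale from the other libraries of its group at 10 CPM or more. UBA3 was at 103 CPM in K504E-red replicate 3, against 39.6 and 39.8 CPM in the other K504E-red libraries, a ratio of 2.60, while its neighbours ISA2 and ROX1 had ratios of 1.05 and 1.01. In WT-red replicate 1, the silencing deacetylase SIR2 was at 23.7 CPM, against 43.2 and 50.8 CPM in the other WT-red libraries. The adjacent splicing gene PRP11 was at 21.2 CPM in that library, against 40.7 and 39.2 CPM. The ratios were 0.504 for SIR2 and 0.531 for PRP11, whereas the genes on either side of the pair, NAT1 and MTF2, were at 0.995 and 0.905. SIR2 was also low in K504E-red replicate 2 against the other K504E-red libraries, by less than the 0.9 set above. YIR042C was at 30.6 CPM in WT-red replicate 3, against 12.7 and 15.0 CPM. COS10 and YER188W, both next to chromosome ends, were low in K504E-red replicate 2, at ratios of 0.519 and 0.520. What sets these libraries apart was not tested.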
